A study of Danio rerio with 12 samples.

Results

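The comparison of beclomethasone with DMSO at 24 hours post fertilisation (hpf) took up 6 of the 12 arrays of a series on zebrafish (Danio rerio) embryos. The arrays were chosen by the stage and treatment in their labels, 3 of beclomethasone and 3 of DMSO. All were of whole embryos of the AB wild-type strain, for which the labels name no mutation or transgene. At 24 hpf the embryos were held for 3 h in medium with beclomethasone (25 µM) or with DMSO at 0.1% (dimethyl sulfoxide, a solvent) and were then frozen, and each array carried the Cy3-labelled RNA of 1 sample. The labels give neither the number of embryos per sample nor whether the beclomethasone medium also held DMSO. They call the replicates triplicate experiments without naming separate clutches, so that the p-values measure only the spread between these samples, which may be technical. The other 6 arrays held the same pair of treatments at 72 hpf. Since a whole embryo gives a single value per transcript, fewer cells of a type and less RNA per cell cannot be told apart.

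Beclomethasone is a synthetic glucocorticoid. Such steroids enter cells and bind the glucocorticoid receptor, encoded by nr3c1, which the chaperone Hsp90 and its partner Fkbp4 keep in a state that can bind hormone. The bound receptor enters the nucleus, binds DNA and raises or lowers the transcription of its targets, and some of these, such as fkbp5, dampen the receptor in turn. In adult vertebrates the response includes glucose production in the liver, restraint of inflammation and of growth, and protein breakdown in muscle. The zebrafish embryo carries receptor and cortisol from its mother, and at 24 hpf it has a beating heart, contracting muscle and the first circulating red cells while its brain, gut and liver are still forming.

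Levels are given as log2 of the processed spot intensity minus the 75th percentile of that array, so that 0 marks the brightness that 75% of an array's probes do not exceed. They compare arrays for a given probe and do not rank genes against each other. Where several probes measured a gene, the brightest stands for it. A difference was called where limma gave an adjusted p below 0.05 in a fit over all 12 arrays, and it is given as the log2 fold change of beclomethasone over DMSO with its standard error (log2 ± SE, 3 arrays per group). Values are listed in the order of replicates 1, 2 and 3, which have no other order.

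Of the 43803 non-control spots, 31210 to 34296 were called well above background by the scanning program on 5 of the 6 arrays, and 16764 were on DMSO replicate 3. The lowest signal on that array was 42.8 scanner units against 2.36 to 3.89 on the other 5, so that its weak signals lie too high, and every result below was repeated without it. Beclomethasone replicates correlated across genes at 0.992 to 0.995, the first DMSO pair at 0.993, and DMSO 3 with the other DMSO arrays at 0.932. The 3 DMSO arrays shared slide 1 with beclomethasone replicate 1, and beclomethasone replicates 2 and 3 lay on slide 2, so that a fit with slide as a block rests on 1 beclomethasone array against 3 DMSO arrays. Treatment labels are those of the scanner arrays. In the table of log2 values that the authors also deposited, each of the 6 columns of 24 hpf matched the array of the opposite treatment and the same replicate number best (r = 0.988 to 0.994 over 13879 bright probes, against 0.658 to 0.824 for its own label). The columns of 72 hpf were turned in the same way, with 0.997 against 0.810 for the first DMSO column. Every direction given here, at either stage, therefore turns if that table's labels are right.

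After 3 h of beclomethasone, 4829 of 25166 genes and unnamed probes differed from DMSO (19.2%), of which 2278 were higher (9.05%) and 2551 lower (10.1%). The changes were mostly small: 366 of the rises and 210 of the falls reached 2-fold. The median log2 fold change over all features was -0.12, and with quantile normalization it was 0.00, so that a small fall lies near the middle of all genes. Without DMSO 3 the count was 6313 (25.1%), with 2767 higher (11.0%) and 3546 lower (14.1%), and 4270 features were called in both fits with the same sign. A further 559 were called only with all arrays and 2043 only without DMSO 3. Without beclomethasone replicate 2 the count was 2199, and without replicate 1 it was 2976. With slide as a block 891 features were called, 586 higher and 305 lower, and with only the 6 arrays of 24 hpf in the fit 1311 were. Scaling moved the balance, with 1837 higher and 4150 lower when arrays were centred on their medians, and 2262 higher and 7363 lower with normexp background correction. Of the 138 called genes named here with a value, all 138 kept their sign with slide as a block. That fit uses the same DMSO arrays as the calls. All 4829 calls had the same sign in beclomethasone 1 alone against DMSO, so that the kept signs are no independent check.

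**Figure D1:**
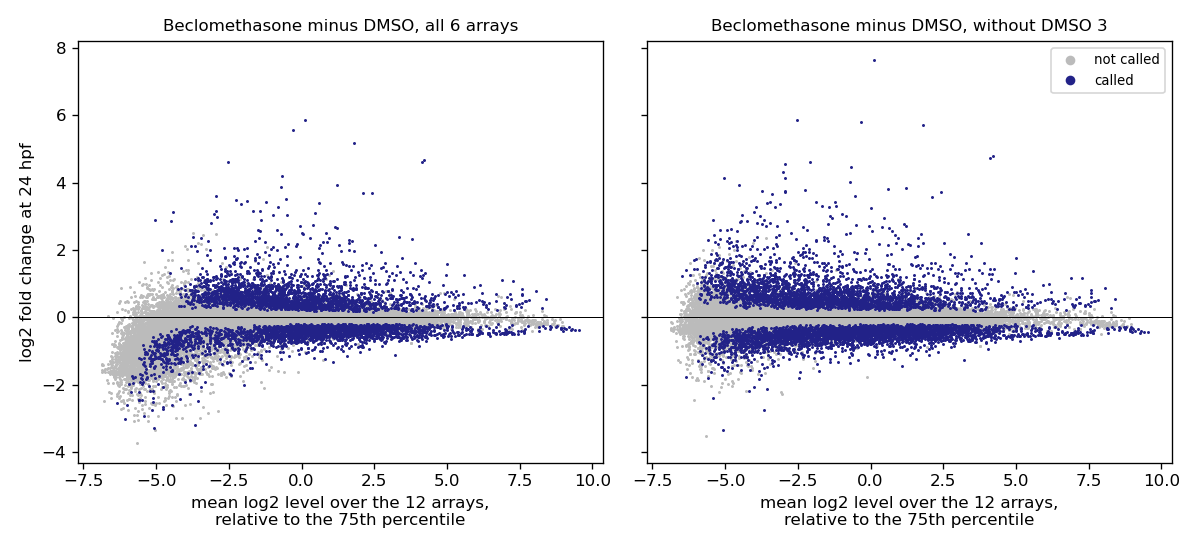
Log2 fold change of beclomethasone over DMSO at 24 hpf against the mean level over the 12 arrays (both log2) for the 25166 genes and probes tested, with all 6 arrays on the left and without DMSO replicate 3 on the right. Dark points are called and grey points are not. On the left the dimmest features lean downwards, and on the right their cloud is centred near 0.

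The weight of DMSO 3 fell on the dim genes. When the features were split into 5 equal groups by mean level, the median log2 fold change of the dimmest group was -0.66 with all arrays and -0.07 without DMSO 3. In that group 0.119% of the features were called higher and 4.97% lower with all arrays, and 7.39% and 5.18% without DMSO 3. In the brightest group the median was -0.08 and -0.10, and 11.0% were called higher and 20.0% lower. Falls of dim genes are therefore given below only where they were called in both fits. Rises of dim genes have a limit too. A probe entered both fits if it was well above background on all 3 arrays of at least 1 group. DMSO 3 had 16764 such spots, so that dim genes seldom entered through DMSO at 24 hpf. Dim genes seen only there were left out, so that the filter favours rises. This applies to fkbp5, klf9 and the rises given as bounds.

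Probes of the same gene did not always give the same answer. Of 799 genes called higher that had several tested probes, 612 had every probe above 0 and 487 had a further probe called higher. Of 998 called lower, 604 had every probe below 0 and 368 a further probe called lower, and 70 had a probe called higher. Among changes of at least 2-fold, 84 of 116 rises and 14 of 27 falls had a further probe called in the same direction, and 0 of 116 and 0 of 27 had one called in the other.

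Markers of the tissues a whole embryo should hold were measured. All tested markers of neurons (5), fast muscle (5), embryonic red cells (4), hatching gland (4), notochord (4) and epidermis (4) were well above background on at least 2 arrays of each group. Of the markers of later organs, both tested liver genes and 2 of 4 pancreas enzymes were so with DMSO, and the median level of the rod and cone opsins was -4.46 with DMSO at 24 hpf against 5.52 at 72 hpf. With beclomethasone 3 of 4 markers of red cells, 2 of 5 of fast muscle, 1 of 4 of notochord, 2 of 4 of pigment cells and 2 of 5 of leukocytes were higher, where 9.05% of all features were. Others stood below 0 without a call: mylpfa (-0.08) and actc1b (-0.10) of fast muscle, col2a1a (-0.175) of notochord and mpeg1.1 (-0.58) of leukocytes. The notochord call was that of col9a1a, which was dim with DMSO (mean level -4.26) and lost its call with slide as a block. The epidermal marker krt4 was lower at its brightest probe, and its probes disagree, as given below.

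Genes were also read in 60 lists by function, and counts of called members are set against the 9.05% higher and 10.1% lower of all features. In 6 lists limma called 0 genes higher and in 12 lists 0 lower, where an unadjusted p under 0.05 held for 0 to 6 genes of that direction in each. Where leaving out 1 array of 24 hpf moved the leading count of a list by over 1.5 times, that count is given. Counts from another setting are to be read against the share of all features in that setting. With slide as a block 2.33% of all features were higher and 1.21% lower, and with normexp 8.99% and 29.3%. Median centring gave 7.3% and 16.5%, quantile normalization 8.29% and 7.82%, and the median over a gene's probes 9.58% and 8.16%. With only the 24 hpf arrays the shares were 3.19% and 2.02%. Leaving out 1 array gave 4.95% to 11.0% higher and 3.79% to 14.1% lower. The lists were drawn up with earlier results of these data known, so that their directions are not independent evidence.

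Targets of the receptor were among the steepest rises. Of 30 tested genes on a list of known glucocorticoid receptor targets, 15 were higher and 1 was lower, with a median log2 fold change of 0.39 against -0.12 over all features. The medians of the list on the 3 beclomethasone arrays lay 0.33, 0.39 and 0.36 above the mean of DMSO 1 and 2. Without DMSO 3 the counts were 16 and 1, and with slide as a block 6 and 0.

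The immunophilin gene fkbp5, whose product holds the receptor in a state of low affinity, had levels of -5.75, -5.69 and -0.40 with DMSO and 1.84, 2.11 and 1.77 with beclomethasone. DMSO 1 and 2 were near the floor of the scanner and DMSO 3 was the only DMSO array well above background, yet all 3 beclomethasone arrays lay above it. The rise was called (adjusted p = 0.00925), and without DMSO 3 it was at least 159-fold (adjusted p = 2.22e-07). Its second probe was called higher too. The transcription factor gene klf9, an immediate target of corticosteroid receptors, read -1.67, -1.56 and -1.49 with beclomethasone against -7.39, -7.47 and -3.66 with DMSO. None of the DMSO arrays was well above background, which puts the rise at 5.91-fold or more (adjusted p = 0.00612), and at 14.2-fold or more without DMSO 3 (adjusted p = 1.11e-07). For both genes the call was lost with slide as a block (a fitted 5.79 with adjusted p = 0.121 for fkbp5 and 4.5 with adjusted p = 0.1 for klf9) and with only the 24 hpf arrays.

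The gene hsd11b2 encodes the enzyme that turns cortisol into inactive cortisone. Its levels were -1.93, -2.06 and -2.25 with DMSO and 1.84, 1.90 and 1.82 with beclomethasone, groups that lie far apart, for a log2 fold change of 3.93 ± 0.12, adjusted p = 1.93e-07. Within slide 1 the difference was 3.92. The gene of the leucine zipper protein tsc22d3, known as GILZ in mammals and an inhibitor of inflammatory transcription factors, read 0.27, 0.42 and 0.33 with beclomethasone against -0.55, -0.99 and -1.37 with DMSO (1.31 ± 0.18, adjusted p = 0.00161). Its 3 DMSO arrays spread over a wider range than its 3 beclomethasone arrays, and the groups did not overlap. The kinase gene sgk1, which promotes sodium uptake in epithelia, changed less but tightly, from 1.37, 1.34 and 1.27 to 1.90, 1.88 and 1.91 (0.57 ± 0.06, adjusted p = 0.00054). The related genes sgk2b (1.24 ± 0.12, adjusted p = 0.000296) and sgk3 (1.23 ± 0.09, adjusted p = 7.35e-05) rose further, although the last of 3 probes of sgk3 was not called.

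Further targets with known functions rose. The C/EBP transcription factor gene cebpd went from 0.96, 0.78 and 0.68 with DMSO to 2.74, 2.87 and 2.63 with beclomethasone (1.94 ± 0.13, adjusted p = 3.26e-05), and all 3 of its probes were called. The NF-kB inhibitor gene nfkbiaa rose by 1.61 ± 0.18, adjusted p = 0.00064. The growth inhibitor gene ddit4 (Redd1), which blocks the mTORC1 kinase, read 3.25, 3.27 and 3.2 with beclomethasone against 0.77, 0.74 and 1.46 with DMSO (2.25 ± 0.40, adjusted p = 0.00596). DMSO 3 was the highest of its DMSO arrays and still below all 3 beclomethasone arrays, and the call was lost with slide as a block (adjusted p = 0.055). The gene pck1 of glucose production had levels of -4.16, -4.20 and -2.0 with DMSO and -1.81, -1.99 and -1.58 with beclomethasone. DMSO 3 lay next to the lowest treated array, and the difference was not called (1.66 ± 0.56, adjusted p = 0.0679), whereas without DMSO 3 it was 2.39 (adjusted p = 0.00213) and called, and its second probe was called with all arrays.

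The parts of the stress axis itself moved little or down. The receptor gene nr3c1 had levels of -0.61, -0.86 and -0.68 with DMSO and -1.27, -1.14 and -1.07 with beclomethasone, and it fell by 0.44 on the log2 scale at its brightest probe (adjusted p = 0.00859), while its other 2 probes were not called. Without the 72 hpf arrays in the fit this call was lost. The receptor's chaperone partner gene fkbp4 fell by 0.69 on the log2 scale at the brightest of its probes (adjusted p = 0.000457) and was called lower at the other as well. Corticotropin-releasing hormone, crhb, was not called (-0.19 ± 0.10, adjusted p = 0.235), and avp, which encodes vasotocin, was called higher with all arrays (0.34 ± 0.10) but not without DMSO 3. Of 20 tested genes of the stress axis and steroid handling, 2 were higher and 5 lower, and 3 were lower when DMSO 1 or any beclomethasone array was left out. The clock gene per1a, a direct target of the receptor in mammals, was not called (-0.42 ± 0.27, adjusted p = 0.298), and its 3 beclomethasone arrays read 1.70, 0.90 and 1.09, with replicate 1 above the others.

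**Figure D2:**
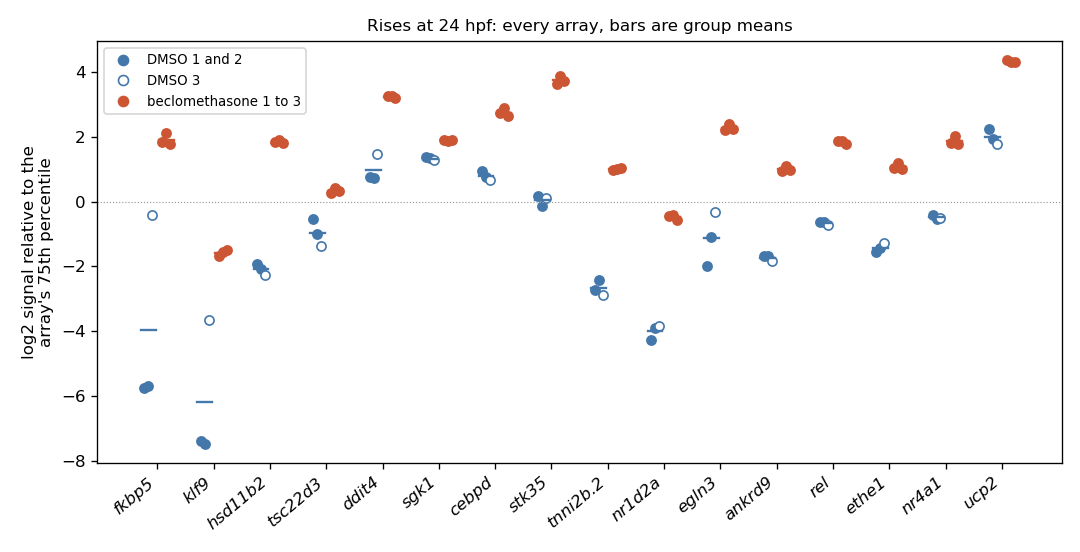
Level of 16 genes that rose at 24 hpf on each of the 6 arrays, as log2 of the signal relative to the array's 75th percentile. Blue points are DMSO (open for replicate 3), red points beclomethasone, and bars are means of 3 arrays. In every gene shown the 3 red points lie above the 3 blue ones, as for 2264 of the 2278 called rises. The open point of fkbp5 and of klf9 stands far above the other DMSO arrays.

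Large rises outside the list came from genes of varied function. The kinase gene stk35 had levels of 0.17, -0.14 and 0.10 with DMSO and 3.62, 3.89 and 3.73 with beclomethasone (3.70 ± 0.16, adjusted p = 2.97e-06), and all 3 of its probes were called. The gene tnni2b.2, which encodes a fast muscle troponin I, read 0.98, 1.02 and 1.04 with beclomethasone against -2.72, -2.42 and -2.88 with DMSO (3.68 ± 0.11, adjusted p = 1.93e-07). The serine protease gene prss60.1 rose by 3.14 ± 0.19, adjusted p = 2.09e-05, and pnpla3, which encodes a lipid droplet acyltransferase and lipase, by 3.03 ± 0.20, adjusted p = 2.91e-05. In all 4 genes the arrays of a treatment lay close together and far from the other treatment.

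Several mitochondrial genes rose. The sulfide-oxidising enzymes of the mitochondrion are encoded by sqor, the first step, and ethe1, the next. Levels of sqor were 0.13, 0.22 and 0.33 with DMSO and 2.59, 2.62 and 2.34 with beclomethasone (2.29 ± 0.10, adjusted p = 3.2e-06) and those of ethe1 -1.54, -1.44 and -1.29 with DMSO and 1.03, 1.18 and 0.99 with beclomethasone (2.49 ± 0.10, adjusted p = 1.86e-06), with both probes of each gene called. The uncoupling protein genes ucp2 (2.32 ± 0.13, adjusted p = 1.04e-05) and ucp1 (1.92 ± 0.25, adjusted p = 0.00143), whose products let protons leak through the inner membrane, rose as well. For ucp2 the arrays read 4.36, 4.30 and 4.30 with beclomethasone against 2.26, 1.94 and 1.79 with DMSO, and all 3 probes were called, while for ucp1 2 of 5 probes were. The gene oaz2b, whose product marks ornithine decarboxylase for breakdown, rose by 2.47 ± 0.13, adjusted p = 8.45e-06, and odc1, which encodes that decarboxylase of polyamine synthesis, fell by 1.03 on the log2 scale (adjusted p = 0.000545). Levels of odc1 went from 3.63, 3.37 and 3.2 to 2.43, 2.21 and 2.48, and those of oaz2b from -3.54, -3.88 and -3.59 to -1.21, -1.21 and -1.18.

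Several transcription factors and signalling genes of the fast response rose. The NF-kB subunit gene rel read 1.86, 1.87 and 1.78 with beclomethasone against -0.62, -0.62 and -0.73 with DMSO (2.49 ± 0.17, adjusted p = 3.4e-05), and the orphan nuclear receptor gene nr4a1 1.82, 2.02 and 1.78 with beclomethasone against -0.42, -0.53 and -0.52 with DMSO (2.36 ± 0.10, adjusted p = 2.97e-06), with the second probe of each called too. The gene fosab, an AP-1 subunit, had scattered DMSO values of -1.17, -2.30 and -3.13 below beclomethasone values of -0.07, -0.15 and -0.35 (2.01 ± 0.39, adjusted p = 0.00785). Of 37 tested immediate early genes 10 were higher and 1, the pluripotency and epidermal factor gene klf4, was lower (-0.91 ± 0.17, adjusted p = 0.00703). The survival gene mcl1b rose by 1.23 ± 0.07, adjusted p = 1.86e-05. The ankyrin repeat gene ankrd9 (2.74 ± 0.20, adjusted p = 6.19e-05), the insulin receptor substrate gene irs2a (1.84 ± 0.25, adjusted p = 0.00166) and the Kruppel-like factor gene klf3 (1.96 ± 0.17, adjusted p = 0.00014) were also among the 40 largest rises. For irs2a the DMSO levels were -4.83, -4.59 and -3.74, with DMSO 3 the highest, and the beclomethasone levels -2.72, -2.38 and -2.54. Over the Kruppel-like and C/EBP factors 12 of 35 were higher and 3 lower, and without DMSO 3 these counts were 9 and 7. Without beclomethasone 1 or 2, 7 and 6 were higher.

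Several clock genes rose. Repressors of the Rev-erb family are encoded by nr1d2a, whose levels were -4.26, -3.89 and -3.85 with DMSO and -0.45, -0.40 and -0.57 with beclomethasone (3.52 ± 0.17, adjusted p = 4.68e-06). The cryptochrome gene cry4 read -0.16, -0.17 and -0.44 with beclomethasone against -2.47, -1.97 and -2.45 with DMSO (2.04 ± 0.13, adjusted p = 2.91e-05), cry1a, a light-inducible repressor in zebrafish, rose by 1.07 ± 0.09, adjusted p = 0.000137, and tefb, a PAR bZIP factor gene of clock output, by 2.03 ± 0.29, adjusted p = 0.00216. Of 31 clock genes tested 8 were higher and 3 lower, with a median of 0.04. The genes nfil3-5 (-0.09) and csnk1db (-0.14), a kinase gene of the clock, were among the brightest of those not called. Time of day of treatment is not in the labels, and its part in the result was not tested.

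Many genes of sugar breakdown (glycolysis) rose, 21 of 36 (58.3%, against 9.05% of all features), with 1 lower and a median of 0.42. The count was 21 without DMSO 3, 20 with quantile normalization, 17 with median centring and 12 with slide as a block. The products of pfkfb3 (1.14, 1.27 and 1.24 with beclomethasone against -0.70, -0.58 and -0.28 with DMSO) and pfkfb4b make or break the activator fructose 2,6-bisphosphate, and the genes rose by 1.74 ± 0.12 and 1.39 ± 0.15. The phosphofructokinase genes pfkma and pfkmb, which encode the committed step in muscle, rose by 1.5 ± 0.15 and 1.69 ± 0.17. The bright genes of the lactate dehydrogenase subunit ldhba (0.07) and of pyruvate dehydrogenase pdha1a (-0.15) were not called. The glucose-6-phosphatase gene g6pc1a.2, of glucose release, rose from -1.38, -1.55 and -1.52 to 0.96, 0.60 and 0.70 (2.23 ± 0.18, adjusted p = 0.000124), and the lactate exporter gene slc16a3b by 1.05 ± 0.09 at its brightest probe (adjusted p = 0.000128), with its other 3 probes called too.

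Many genes that oxygen shortage induces rose with them. Of 18 tested genes of the hypoxia pathway 10 were higher and 1 was lower, with a median of 0.58, and without DMSO 3 13 were higher, with a median of 0.88. The oxygen sensor gene egln3, whose product marks hypoxia-inducible factors for breakdown, had DMSO levels of -1.98, -1.10 and -0.31 and beclomethasone levels of 2.22, 2.39 and 2.23 (3.41 ± 0.37, adjusted p = 0.000579). Its DMSO values spread widely while the treated ones were tight, and the groups did not overlap. The mitophagy receptor gene bnip3lb read 3.31, 3.47 and 3.46 with beclomethasone against 1.26, 1.17 and 1.38 with DMSO (2.15 ± 0.10, adjusted p = 3.21e-06). Genes ankrd37 (1.79 ± 0.11, adjusted p = 1.78e-05), igfbp1a (1.51 ± 0.12, adjusted p = 8.13e-05), which binds insulin-like growth factors, and vhl (1.32 ± 0.15, adjusted p = 0.000563), the ubiquitin ligase subunit for hypoxia-inducible factors, followed. Outside the list, the collagen prolyl hydroxylase gene p4ha1b read 2.18, 2.4 and 2.24 with beclomethasone against -0.54, -0.02 and 0.70 with DMSO (2.23 ± 0.27, adjusted p = 0.000914). Among genes not called, vegfaa stood at -0.22.

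Some respiration genes rose by smaller amounts. Of 41 tested subunits of oxidative phosphorylation 10 were higher and 0 lower, with a median of 0.14, and 6 were higher with slide as a block. The count also moved with probe choice and background, to 19 higher by the median over probes and 18 with normexp. In the fit over all 12 arrays the largest were ndufa9a (0.84 ± 0.13, adjusted p = 0.00304) and ndufs7 (0.82 ± 0.14, adjusted p = 0.0046) of complex I and cox6b1 (0.82 ± 0.08, adjusted p = 0.000373) of complex IV. ATP synthase subunits atp5f1b (-0.11) and atp5fa1 (0.12) were not called at their brightest probes. Other probes of atp5fa1 were called with opposite signs (0.89 and -0.49), so that no direction is given for that gene. In the citrate cycle and mitochondrial transport 8 of 29 were higher and 0 lower, among them the ADP/ATP carrier gene slc25a4 (0.75 ± 0.11, adjusted p = 0.00193), and 5 were higher without DMSO 3, 4 without DMSO 1, 4 without beclomethasone 1 and 3 without beclomethasone 2.

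Lipid and steroid genes moved in part. Of 27 tested genes of sterol synthesis 6 were higher and 0 lower, with a median of 0.23. The methylsterol oxidase gene msmo1 went from -2.61, -2.93 and -3.2 to -0.80, -0.69 and -0.99 (2.09 ± 0.29, adjusted p = 0.00171), and cyp51 (0.85 ± 0.14, adjusted p = 0.00362) and insig1 (0.82 ± 0.13, adjusted p = 0.00325), whose product restrains the pathway, rose less. The genes srebf2 (0.22) and hmgcs1 (0.44) were not called. Of 34 genes of fatty acid and lipid metabolism 5 were higher and 6 lower, with 3 lower without DMSO 1, 2 without beclomethasone 1 and 1 without beclomethasone 2. The phosphatidate phosphatase gene lpin1a rose by 1.55 ± 0.18, adjusted p = 0.000807, and the lipid droplet gene cidec had levels of -3.05, -3.59 and -3.80 with DMSO and -4.90, -6.14 and -5.14 with beclomethasone (-1.91 ± 0.32, adjusted p = 0.00411). The cidec values of both groups were scattered without overlap, and its call was lost with slide as a block. Only 2 arrays of each group were well above background for cidec.

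Several detoxification genes rose. Of 31 genes of the aryl hydrocarbon and xenobiotic response 12 were higher and 1 lower. The rises were led by 3 cytochrome P450 genes of the Cyp1 family. For cyp1a the levels were -2.08, -1.91 and -2.48 with DMSO and 0.21, 0.08 and -0.20 with beclomethasone (2.19 ± 0.21, adjusted p = 0.000274), for cyp1c1 -2.91, -3.0 and -3.59 with DMSO and -1.04, -1.12 and -1.05 with beclomethasone (2.1 ± 0.17, adjusted p = 0.000107) and for cyp1c2 -4.42, -4.61 and -3.84 with DMSO and -2.28, -2.06 and -2.33 with beclomethasone (2.07 ± 0.19, adjusted p = 0.000206). Each group was separate from the other in these 3 genes, and for cyp1c2 DMSO 3 read higher than the other DMSO arrays. Other probes of cyp1a and cyp1c2 were not called, nor was 1 of 3 of cyp1c1. The receptor gene ahr2 was not called (0.11). The sulfotransferase gene sult2st1, whose product conjugates steroids, rose by 1.46 ± 0.08 at its brightest probe (adjusted p = 7.03e-06) and by more at its other 2. In the antioxidant list 5 of 29 were higher, such as the heme oxygenase gene hmox1a (1.11 ± 0.17, adjusted p = 0.00301) and txnipa (1.16 ± 0.10, adjusted p = 0.000137), whose product inhibits thioredoxin, and 6 were lower, or 2 without beclomethasone 2.

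Amino acid genes were split. Carriers counted 7 higher and 3 lower of 19, 5 and 5 without DMSO 3 and 4 and 2 without beclomethasone 2, with slc3a2b, the heavy chain of several amino acid exchangers, among the rises (0.99 ± 0.09, adjusted p = 0.000169). Enzymes of amino acid and nitrogen metabolism counted 5 and 3 of 33, 3 and 4 with quantile normalization and 4 and 5 without DMSO 3. Without DMSO 1 or any 1 beclomethasone array 2 or 3 of them were higher and 2 or 3 lower, so that no direction is given. The aminotransferase gene agxtb was not well above background on any DMSO array and rose at least 2.4-fold (adjusted p = 0.0213). The arginase gene arg2 rose by 0.81 ± 0.13, adjusted p = 0.00367.

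Several brakes on growth and on the cell cycle rose. Among 29 tested brakes on growth signalling 10 were higher and 4 lower, and with slide as a block 7 were higher. The 4E-BP proteins bind the cap-binding factor and hold translation back. Of their genes, eif4ebp3 had levels of 0.20, 0.13 and 0.12 with DMSO and 1.71, 1.81 and 1.63 with beclomethasone (1.57 ± 0.08, adjusted p = 6.4e-06), and eif4ebp2 was not called (0.04). The gene castor2, whose product restrains mTORC1, rose by 1.27 ± 0.09, adjusted p = 3.4e-05. Of 28 cell cycle inhibitors and p53 targets 11 were higher and 2 lower. They included the stress gene gadd45ba (-1.25, -1.29 and -1.39 with beclomethasone against -2.82, -2.78 and -3.11 with DMSO, 1.59 ± 0.14, adjusted p = 0.000186), the cyclin-dependent kinase inhibitor gene cdkn1ba (1.27 ± 0.14, adjusted p = 0.000668) and the antiproliferative gene tob1a (1.19 ± 0.10, adjusted p = 0.000164). The inhibitor gene cdkn1bb was not called (-0.04).

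The calls among DNA replication genes were falls. Of 43 tested, 20 were lower (46.5%, against 10.1% of all features) and 0 higher, with a median of -0.27. The medians on the 3 beclomethasone arrays were -0.28, -0.32 and -0.30 relative to DMSO 1 and 2, and that of DMSO 3 was -0.06. Lower counts were 15 with quantile normalization, 14 with the median over probes and 3 with slide as a block, and 13 and 12 without beclomethasone 1 and 2. The replication initiation gene mcm10 had levels of 0.88, 0.81 and 0.72 with DMSO and 0.14, -0.03 and 0.15 with beclomethasone (-0.71 ± 0.08, adjusted p = 6e-04). The helicase gene mcm3 (-0.56 ± 0.08, adjusted p = 0.00221) and the licensing inhibitor gene gmnn (-0.59 ± 0.10, adjusted p = 0.00375) fell too, while the helicase genes mcm7 (-0.09) and mcm4 (0.01) were not called. The second probes of mcm10 (-0.08) and mcm3 (-0.48) were not called either. Of 42 genes of mitosis and cyclins 7 were lower and 0 higher. The cyclin gene ccne1 (-0.82 ± 0.10, adjusted p = 0.00126) and its kinase gene cdk2 (-0.63 ± 0.07, adjusted p = 0.000457), which drive entry into S phase, fell, whereas the cyclin gene ccnd1 (-0.21) and the condensin gene smc4 (-0.08) were not called. By the median over probes that list had 5 genes higher and 5 lower.

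Chromatin regulators counted 9 lower and 2 higher of 40, with 4 lower without beclomethasone 1, 3 without beclomethasone 2, 2 with slide as a block and 16 with median centring. The Polycomb methyltransferase gene ezh2 fell from 2.63, 2.52 and 2.48 to 1.67, 1.67 and 1.84 (-0.82 ± 0.08, adjusted p = 0.000392), at both its probes. Its partner gene suz12a read -3.14, -3.14 and -2.96 with beclomethasone against -2.46, -2.24 and -1.37 with DMSO (-1.06 ± 0.24, adjusted p = 0.0152), with DMSO 3 high, and without DMSO 3 the fold change was -0.73 (adjusted p = 0.00481). The retinoblastoma gene rb1, a brake on S phase, fell as well, with levels of -1.60, -1.87 and -2.32 with DMSO and -3.26, -3.10 and -2.98 with beclomethasone (-1.18 ± 0.25, adjusted p = 0.0115) at the brightest of 3 probes and no call at the others.

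**Figure D3:**
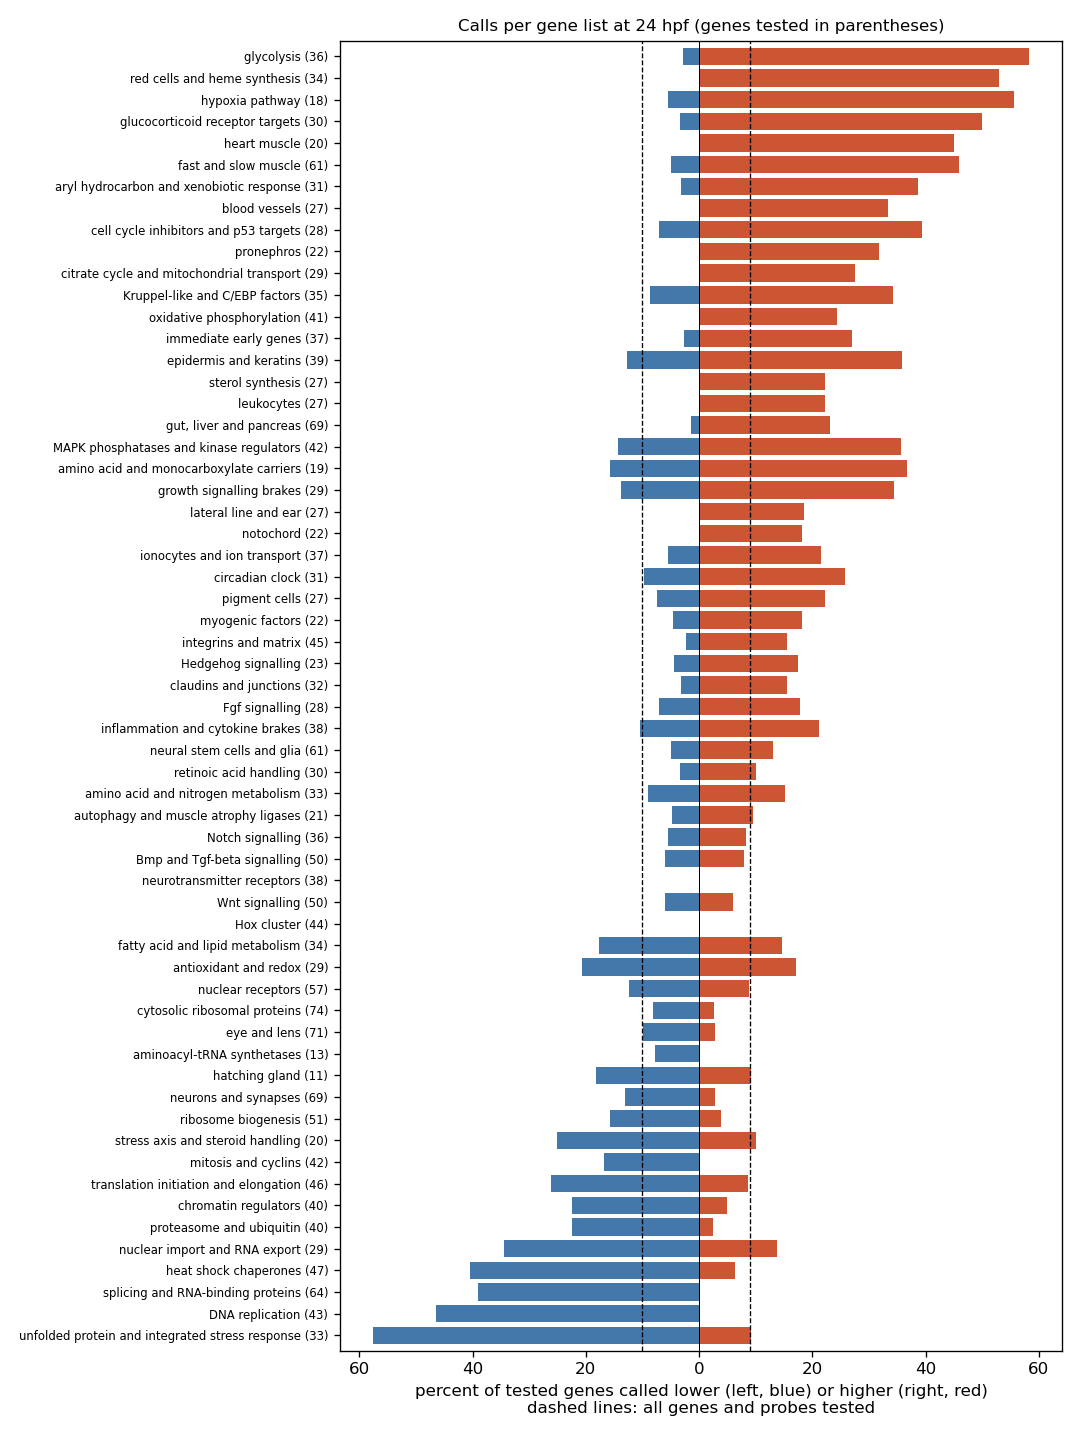
Percent of the tested genes of each of 60 lists called higher (red, right) or lower (blue, left) with beclomethasone at 24 hpf, with the number tested in parentheses. Dashed lines mark all features, 9.05% higher and 10.1% lower. In the fit shown glycolysis reaches the largest percent higher, and the unfolded protein and integrated stress response the largest percent lower.

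Many chaperone genes fell. Of 47 tested heat shock chaperones 19 were lower and 3 higher, with a median of -0.26, and with slide as a block 5 were lower and without beclomethasone 2 11. By the median over probes 12 were lower and 7 higher, with a median of -0.142 against -0.105 over all features. The cytosolic Hsp90 gene hsp90aa1.2 had levels of 3.74, 3.39 and 3.11 with DMSO and 2.31, 2.19 and 2.36 with beclomethasone (-1.13 ± 0.14, adjusted p = 0.00118), and 2 of its 4 probes were called. The Hsp110 gene hspa4a read 0.76, 0.52 and 0.71 with beclomethasone against 1.97, 1.83 and 1.66 with DMSO (-1.16 ± 0.12, adjusted p = 0.000515) and the Hsp40 genes dnaja1 -1.99, -2.19 and -1.81 with beclomethasone against -0.49, -0.82 and -1.07 with DMSO (-1.20 ± 0.18, adjusted p = 0.0027) and dnajc21 -0.58, -0.76 and -0.48 with beclomethasone against 0.83, 0.49 and 0.32 with DMSO (-1.15 ± 0.14, adjusted p = 0.00116). In all 4 genes every treated array lay below every DMSO array, as for 2529 of the 2551 called falls. DMSO 3 was the lowest of their DMSO arrays. The call on dnaja1 was lost with slide as a block (adjusted p = 0.0617). The constitutive gene hspa8 was not called (-0.10). Against this direction the small heat shock gene hspb9 rose from 0.39, 0.33 and 0.46 to 2.67, 2.71 and 2.28 (2.16 ± 0.20, adjusted p = 0.000222), and the muscle Hsp90 gene hsp90aa1.1 by 0.99 ± 0.20, adjusted p = 0.0101.

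Many genes of protein folding in the endoplasmic reticulum fell. Of 33 genes of the unfolded protein and integrated stress response 19 were lower (57.6%) and 3 higher, with a median of -0.29. Counts of lower genes were 20 without DMSO 3, 18 with quantile normalization, 11 with the median over probes and 4 with slide as a block. They were 11 without DMSO 1, 11 without beclomethasone 1 and 10 without beclomethasone 2. The secreted survival factor gene manf fell from 2.38, 2.2 and 2.15 to 1.69, 1.4 and 1.53 (-0.71 ± 0.09, adjusted p = 0.0013), and the stress factor gene atf4b from 3.43, 3.17 and 3.04 to 2.4, 2.5 and 2.67 (-0.69 ± 0.11, adjusted p = 0.0035), though not at its other 2 probes. The phosphatase subunit gene ppp1r15a, which restarts translation after stress, rose by 1.17 ± 0.12, adjusted p = 0.000326. Outside the list, the oxidase gene ero1a of disulfide bond formation rose from -3.2, -3.22 and -3.16 to -1.61, -1.24 and -1.25 (1.83 ± 0.17, adjusted p = 0.000268). Proteasome and ubiquitin genes counted 9 lower and 1 higher of 40, with 3 and 3 by the median over probes and 4 or 5 lower when any array other than DMSO 3 was left out.

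In splicing, nuclear transport, ribosome biogenesis and translation factors more genes were called lower than higher in the fit over all 12 arrays. Among these lists, only in splicing were all calls falls. Of 64 genes of splicing and RNA binding 25 were lower and 0 higher, with a median of -0.17 against -0.12 for all features. This count leaned on the fit: it was 8 without beclomethasone 2, 2 with only the 24 hpf arrays, 1 with slide as a block and 13 with the median over probes, which also put 6 genes higher. The gene hnrnpub fell by 0.58 on the log2 scale (adjusted p = 0.00398) at its brightest probe and was called lower at the other 2. In nuclear import and RNA export 10 of 29 were lower (34.5%) and 4 higher (13.8%, against 9.05% of all features), with 6 lower without DMSO 2 and 5 without beclomethasone 2. Both rcc1 (-0.78 ± 0.09, adjusted p = 0.000872), which loads Ran with GTP, and cse1l (-0.56 ± 0.07, adjusted p = 0.000901), which recycles importin alpha, fell. Ribosome biogenesis counted 8 lower and 2 higher of 51, but 14 lower without DMSO 3, 5 without DMSO 2, 2 without beclomethasone 3 and 1 each without DMSO 1 and without beclomethasone 2. Translation factors counted 12 lower and 4 higher of 46, with 6 lower without DMSO 1, 7 without beclomethasone 1 and 4 without beclomethasone 2, and the median over probes turned that to 4 lower and 9 higher.

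For ribosomal proteins the scaling set the answer. Of 74 cytosolic ribosomal protein genes 6 were lower and 2 higher, and the counts were 25 and 0 with median centring and 1 and 1 with quantile normalization. Without DMSO 3 10 were lower, and the lower calls were lost when any other array was left out. Their median of -0.15 became -0.01 with the latter, so that no direction is given. Aminoacyl-tRNA synthetases had 1 of 13 called lower and 0 higher, with 3 lower without DMSO 3 and 2 without beclomethasone 1. Autophagy genes and muscle atrophy ligases counted 2 higher and 1 lower of 21 (4 higher without DMSO 3), with the factor gene foxo3b, an activator of both, at 0.45 ± 0.09, adjusted p = 0.00851.

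Single genes with large falls came from several tissues. The gene gad3, of the glutamate decarboxylase family whose members make the transmitter GABA, had levels of -1.12, -1.13 and -1.44 with DMSO and -2.88, -2.93 and -2.98 with beclomethasone (-1.70 ± 0.11, adjusted p = 2.5e-05). Its treated arrays lay close together and far below the DMSO arrays. The nitric oxide synthase gene nos2b read -3.08, -2.89 and -2.96 with beclomethasone against -1.01, -1.5 and -1.58 with DMSO (-1.61 ± 0.24, adjusted p = 0.00277). The envoplakin gene evpla of the epidermal envelope fell from 1.43, 1.35 and 1.4 to 0.23, 0.22 and -0.02 (-1.25 ± 0.14, adjusted p = 0.000599), with all 3 probes called, and the keratin gene krt99 from -0.12, 0.13 and 1.09 to -0.85, -1.05 and -1.14 (-1.37 ± 0.28, adjusted p = 0.00993), where DMSO 3 was high and the value without it was -1.01. The parathyroid hormone gene pth1a, which raises calcium uptake, had levels of -3.34, -3.44 and -3.58 with DMSO and -4.66, -4.66 and -4.66 with beclomethasone (-1.21 ± 0.18, adjusted p = 0.00288), and sccpdha.2 of -3.82, -4.04 and -3.80 with DMSO and -5.32, -5.33 and -5.35 with beclomethasone (-1.45 ± 0.10, adjusted p = 4.93e-05). With quantile normalization the call on sccpdha.2 was lost, and only 2 arrays of each group were well above background for it.

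**Figure D4:**
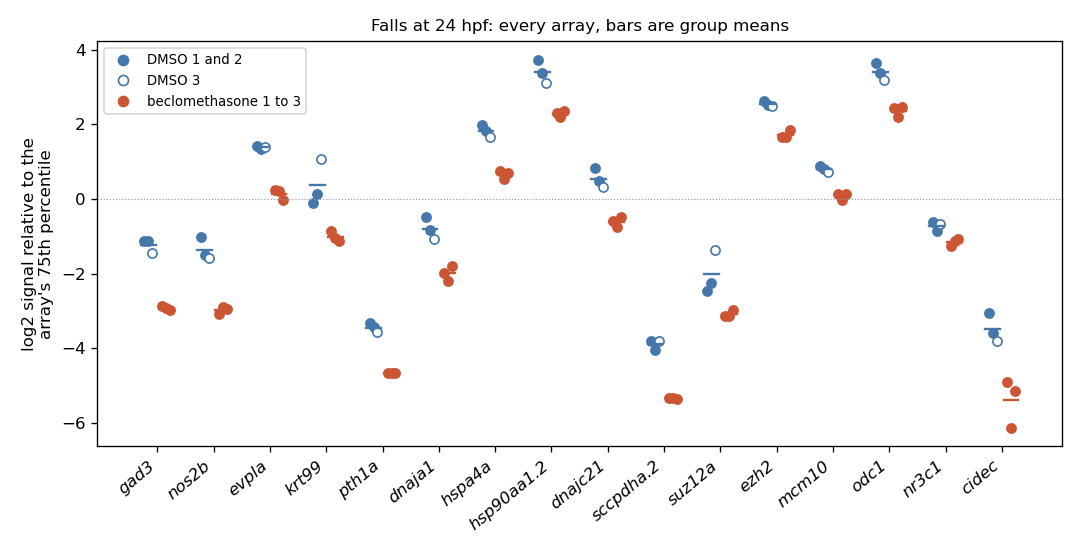
Level of 16 genes that fell at 24 hpf on each of the 6 arrays, as log2 of the signal relative to the array's 75th percentile. Blue points are DMSO (open for replicate 3), red points beclomethasone, and bars are means of 3 arrays. The red points lie below the blue ones in every gene shown, as for 2529 of the 2551 called falls. The open point is high in krt99 and suz12a.

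Other entries among the 40 largest falls sat close to the background, as sccpdha.2 did. The gene nostrin, which traffics nitric oxide synthase, had levels of -4.42, -4.81 and -3.89 with DMSO and -6.20, -6.32 and -5.78 with beclomethasone (-1.73 ± 0.25, adjusted p = 0.00242), and ago3b, an Argonaute gene, of -4.32, -4.67 and -3.88 with DMSO and -5.96, -5.70 and -5.38 with beclomethasone (-1.39 ± 0.22, adjusted p = 0.00328). Both were called again without DMSO 3, at -1.48 and -1.18. With quantile normalization neither was called, and ago3b changed sign, as did pink1 (0.3). Levels of the mitochondrial kinase gene pink1 (-3.96, -4.61 and -3.91 with DMSO and -5.65, -5.42 and -5.16 with beclomethasone) and of the orphan receptor gene esrra (-4.59, -4.23 and -3.68 with DMSO and -5.30, -5.31 and -5.27 with beclomethasone) followed the same course, with DMSO 3 the highest array and calls that were lost with only the 24 hpf arrays.

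Many muscle genes rose. Of 61 tested genes of fast and slow muscle 28 were higher (45.9%) and 3 lower, with a median of 0.24. The list medians of the 3 beclomethasone arrays were 0.29, 0.29 and 0.19 relative to DMSO 1 and 2. With slide as a block 11 were higher and 1 lower, and without beclomethasone 2 18 were higher. Beside tnni2b.2, the calsequestrin gene casq2, which stores calcium in the sarcoplasmic reticulum, rose from -1.47, -0.80 and -0.91 to 1.21, 1.22 and 0.61 (2.07 ± 0.22, adjusted p = 0.000424), although its second probe gave far less (0.21). The ion channel gene tmem38a of the same compartment rose by 1.51 ± 0.19, adjusted p = 0.00107, and the Z-disc gene myoz2a by 1.85 ± 0.26, adjusted p = 0.00185. The brightest muscle genes, actc1b (-0.10), mylpfa (-0.08) and myhz1.1 (0.04), were not called. Myogenic factors counted 4 higher and 1 lower of 22, and myod1 was not called (0.09).

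In the heart list 9 of 20 genes were higher and 0 lower, with a median of 0.42, and 3 were higher with slide as a block. The cardiac actin gene actc1a rose by 1.12 ± 0.15 at its brightest probe (adjusted p = 0.00139), with its other 3 probes called between 0.34 and 1.98, and the cardiac factor gene nkx2.7 by 0.78 ± 0.12, adjusted p = 0.00279. The troponin gene tnnt2a was not called (0.38 ± 0.43).

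Many red cell genes rose. Of 34 genes of red cells and heme synthesis 18 were higher and 0 lower, with a median of 0.37. The count was 15 without DMSO 3, 14 with quantile normalization and 3 with slide as a block, and 9, 8 and 11 without beclomethasone 1, 2 and 3. The erythroid carbonic anhydrase gene cahz read -0.12, -0.23 and -0.31 with beclomethasone against -1.21, -1.15 and -1.42 with DMSO (1.04 ± 0.12, adjusted p = 0.000856), and nt5c2l1, a nucleotidase gene, rose by 1.23 ± 0.13, adjusted p = 0.000411. The second probe of cahz was not called (0.22). The erythroid master factor gene gata1a had levels of -2.75, -3.37 and -3.86 with DMSO and -2.23, -2.56 and -2.34 with beclomethasone (0.95 ± 0.27, adjusted p = 0.0376), and its call was lost without DMSO 3 (adjusted p = 0.0642). Of 27 vessel genes 9 were higher and 0 lower, with 5 higher without beclomethasone 2, among them the endothelial factor gene etsrp (0.76 ± 0.12, adjusted p = 0.00407) and plvapb, of endothelial fenestrae (0.73 ± 0.10, adjusted p = 0.00217). Leukocyte genes counted 6 higher and 0 lower of 27, with 2 higher without beclomethasone 1, 2 without beclomethasone 2 and 3 higher and 4 lower with normexp background correction.

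Some inflammation genes rose. Of 38 genes of inflammation and cytokine brakes 8 were higher (21.1%, against 9.05% of all features) and 4 lower (10.5%, near the 10.1% of all features). When any array other than DMSO 3 was left out, 2 or 3 were lower. The cytokine brake gene socs3a, which blocks Jak kinases, had DMSO levels of -2.51, -3.32 and -3.73 and beclomethasone levels of -0.97, -1.0 and -1.07 (2.17 ± 0.29, adjusted p = 0.00147), and rel and nfkbiaa, given above, rose. The genes jak1 (-0.07) and jak2b (0.07) were not called. Kinase regulators and MAPK phosphatases counted 15 higher and 6 lower of 42, led by stk35, and 10 and 12 with normexp background correction. The survival kinase gene pim2 rose by 0.86 ± 0.09, adjusted p = 0.000508.

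Most calls in skin and ion transport were rises. In the epidermis and keratin list 14 of 39 were higher and 5 lower, with 9 higher without beclomethasone 1 and 9 without beclomethasone 2. The keratin gene krt17 rose by 1.07 ± 0.14, adjusted p = 0.00123, whereas the bright keratin genes krt5 (-0.18) and cyt1 (-0.09) were not called. The Kruppel-like factor gene klf17 of the hatching gland rose by 1.03 ± 0.11, adjusted p = 0.000596 at its brightest probe only, in a hatching gland list with 1 higher and 2 lower of 11. Leaving out any 1 array left 0 or 1 of that list lower. Ionocytes, the skin cells that take up salts, had 8 genes higher and 2 lower of 37. Their specification gene foxi3a read -2.0, -2.16 and -2.28 with beclomethasone against -3.62, -3.21 and -3.30 with DMSO (1.24 ± 0.15, adjusted p = 0.000962) and the sodium pump gene atp1a1a.3 -1.71, -1.67 and -2.09 with beclomethasone against -3.49, -3.48 and -3.42 with DMSO (1.64 ± 0.14, adjusted p = 0.000153). Claudins and junctions counted 5 higher and 1 lower of 32 (2 higher without beclomethasone 1 or 2), with cldng at 2.04 ± 0.31, adjusted p = 0.00303. Integrins and matrix counted 7 and 1 of 45 (4 higher without beclomethasone 2), and notochord genes 4 and 0 of 22, both led by the collagen gene col9a1a (1.32 ± 0.26, adjusted p = 0.00835).

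Among inner organs, kidney (pronephros) genes counted 7 higher and 0 lower of 22, including the phosphate carrier gene slc20a1a (1.80 ± 0.20, adjusted p = 0.000646) and the tubule factor gene hnf1ba (-0.60, -0.69 and -0.65 with beclomethasone against -1.42, -1.45 and -1.63 with DMSO, 0.85 ± 0.07, adjusted p = 9.3e-05). Of 69 genes of gut, liver and pancreas 16 were higher and 1 lower, and without DMSO 3 15 and 0. The urate oxidase gene uox rose by 1.52 ± 0.24, adjusted p = 0.00361 and the plasminogen gene plg by 1.02 ± 0.11, adjusted p = 0.000629. The apolipoprotein genes apoeb (0.55) and apoa2 (0.17) were not called.

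Of 69 neuron and synapse genes 2 were higher and 9 lower (13%, near the 10.1% of all features). There were 5 lower without DMSO 1, 3 without beclomethasone 2 and 23 with normexp background correction, where 29.3% of all features were lower. The bright neuronal genes stmn1b (-0.12) and tuba1a (0.16) were not called. Of 38 neurotransmitter receptor genes limma called 0 higher and 0 lower, 1 and 2 without DMSO 3, and 1 and 18 with normexp. Without DMSO 1 it called 4 of these genes lower, and 1 without DMSO 2 or beclomethasone 3. Their median of -0.36 moved with DMSO 3, on which the list median stood 0.89 above DMSO 1 and 2. Neural stem cell and glia genes counted 8 higher and 3 lower of 61, with 4 higher without beclomethasone 2. Their largest rise was that of foxd3, a neural crest factor gene, from -0.36, -0.19 and -0.37 to 0.98, 1.01 and 0.77 (1.23 ± 0.08, adjusted p = 3.71e-05). Pigment cell genes, which arise from the crest, counted 6 and 2 of 27, with the melanosome carrier gene slc45a2 at 1.3 ± 0.18, adjusted p = 0.00206.

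In eye and lens 7 of 71 genes were lower (9.86%, near the 10.1% of all features) and 2 higher (2.82%, against 9.05%). Without beclomethasone 2 there were 4 lower. The gene pde6ha, of an inhibitory subunit of the cone phosphodiesterase, rose, with levels of -3.46, -4.31 and -3.69 with DMSO and -0.96, -1.09 and -1.44 with beclomethasone (2.66 ± 0.28, adjusted p = 0.000457). Its second probe gave 1.08 and was not called. In the lateral line and ear 5 of 27 were higher and 0 lower (3 higher without DMSO 3, beclomethasone 1 or 2), led by the otolith gene otomp (1.32 ± 0.11, adjusted p = 0.000137).

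Among genes that pattern the embryo, limma called 0 of 44 Hox genes with all arrays, with 5 higher and 3 lower at an unadjusted p under 0.05. Without DMSO 3 it called 2 lower, without DMSO 2 it called 1 higher and without beclomethasone 3 it called 3 higher. With normexp background correction 3 were higher and 3 lower. The list median was 0.08. Wnt genes counted 3 higher and 3 lower of 50, with the inhibitor gene nkd1 at 0.68 ± 0.11, adjusted p = 0.00298 and ctnnb1 not called (-0.08). Notch counted 3 and 2 of 36, Hedgehog 4 and 1 of 23, Fgf 5 and 2 of 28, and Bmp and Tgf-beta 4 and 3 of 50. Without DMSO 3 Hedgehog had 2 higher and 2 lower, and 2 higher without any other 1 array, and Fgf had 3 higher without DMSO 3, beclomethasone 1 or 3 and 2 without beclomethasone 2. Notch had 1 higher without DMSO 2 or beclomethasone 3, and Bmp and Tgf-beta 2 higher without beclomethasone 2. Wnt had 1 higher without beclomethasone 1 or 2, 1 lower without DMSO 1 or any 1 beclomethasone array, and 5 lower without DMSO 3. No direction is therefore given for any of these pathways. With median centring Notch had 1 higher and 4 lower and Fgf 3 and 6. The ligand gene shha (0.10) and the Notch modifier gene lfng (0.09) were not called. Retinoic acid genes counted 3 higher and 1 lower of 30, with the retinol carrier gene rbp4 at 0.96 ± 0.13, adjusted p = 0.00147. Nuclear receptors counted 5 higher and 7 lower of 57, and 11 and 12 without DMSO 3. Without beclomethasone 1, 2 and 3 the lower counts of nuclear receptors were 4, 2 and 4.

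Some rises can be given only as bounds, because DMSO stayed under the background limit. They include slco2a1, a prostaglandin carrier gene, at least 3.07-fold higher (adjusted p = 0.0106), plekhs1.3 at least 3.56-fold (adjusted p = 0.00544) and the amino acid carrier gene slc6a19b at least 2.32-fold (adjusted p = 0.0132). Without DMSO 3 these bounds were 7.4, 8.58 and 5.6. All 3 probes of plekhs1.3 were called, while the second probe of slco2a1 was not. In the other direction the cation channel gene trpc6a was at least 3.04-fold lower (adjusted p = 0.00449) and at least 2.54-fold lower without DMSO 3, with no beclomethasone array well above background and 1 DMSO array that was.

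Where probes of a gene were called with opposite signs, the brightest probe does not stand for the transcript. This held for 106 genes, counting dim probes, and the wide gaps include the actin gene actb1, whose brightest probe fell by 0.29 on the log2 scale while another rose by 1.48, and the keratin gene krt4, at -0.31 and 1.23. For srl, a muscle calcium-binding gene, the probes gave -0.46 and 1.47. For itih3b.2 the brightest probe gave 0.77, and the probe called lower was not well above background on any of the 6 arrays. Probes may meet different transcripts or different parts of one, which was not tested.

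The treatment effects at 24 hpf were also set against those at 72 hpf. At 72 hpf DMSO 1 and 2 lay on slide 2, and DMSO 3 and the 3 beclomethasone arrays on slide 3. Slide was not part of this fit, so that slide and a response that differs by stage cannot be told apart. At 72 hpf 2578 features were called (10.2%). The difference of the treatment effects was called for 1586 of 25166 features (6.30%), and for 3075 (12.2%) without DMSO 3 of 24 hpf. Among the 40 largest rises, 5 genes had the smallest adjusted p for that difference. Of these, tnni2b.2 rose by 3.68 ± 0.11 at 24 hpf and stood at 0.03 ± 0.11 at 72 hpf, where it was not called (difference -3.65 ± 0.15, adjusted p = 1.81e-05). The cone gene pde6ha rose by 2.66 ± 0.28 at 24 hpf and was at -0.69 ± 0.28 at 72 hpf (adjusted p = 0.00248 for the difference). Rises were larger at 24 than at 72 hpf, but called at both, for ethe1 (2.49 ± 0.10 and 0.90 ± 0.10, adjusted p = 0.000518 for the difference), sqor (2.29 ± 0.10 and 1.09 ± 0.10, adjusted p = 0.00256) and bnip3lb (2.15 ± 0.10 and 0.83 ± 0.10, adjusted p = 0.00123).

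Among the 40 largest falls the same rule gave gad3, hspa4a, hsp90aa1.2, evpla and nostrin. At 72 hpf their differences missed the call, with gad3 at 0.20 ± 0.11 (adjusted p = 0.326), hspa4a at 0.24 ± 0.12, hsp90aa1.2 at 0.46 ± 0.14, evpla at 0.41 ± 0.14 and nostrin at 0.78 ± 0.25. The differences between stages were 1.90 ± 0.15 for gad3 (adjusted p = 0.000282) and 1.4 ± 0.18 for hspa4a (adjusted p = 0.00302). Of the receptor targets named by rule, hsd11b2 rose less at 72 hpf (3.13 ± 0.12, adjusted p = 0.0236 for the difference) and sgk1 more (1.39 ± 0.06, adjusted p = 0.00157). For fkbp5 (adjusted p = 0.609), klf9 (adjusted p = 0.651), ddit4 (adjusted p = 0.0906) and tsc22d3 (adjusted p = 0.0844) the difference was not called.

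**Figure D5:**
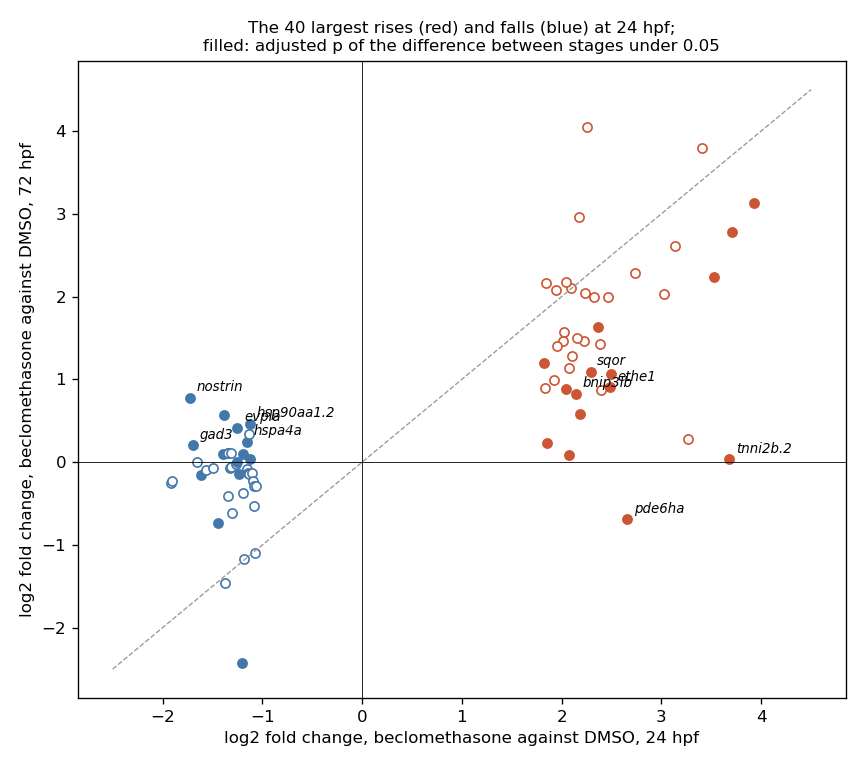
Log2 fold change of beclomethasone over DMSO at 24 hpf (horizontal) and at 72 hpf (vertical) for the 40 largest rises (red) and falls (blue) at 24 hpf. Filled points have an adjusted p under 0.05 for the difference between stages, the dashed line marks equal change, and the 10 genes with the smallest such p are named. The members were chosen on the horizontal values, so that a lean towards 0 on the vertical axis is part of that choice.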

How the data were processed

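RNA of whole zebrafish embryos was measured on 12 one-colour Agilent arrays (design 026437), in 4 groups of 3 assigned by stage and treatment in the labels. The deposited scanner files hold spot intensity processed by Feature Extraction 10.7.1.1, which subtracted background, per the file headers. A further deposited table holds log2 values by the authors, whose scale and centring are not given in the sources used here. Its columns carry the opposite treatment labels at both stages, so it served as an alternative in both readings.

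Control and outlier spots were left out and spots of a probe averaged. Log2 intensity was set relative to the 75th percentile of each array. A probe was kept if well above background on all 3 arrays of at least 1 group, each gene was represented by its brightest probe, and probes without a gene symbol entered singly. Symbols came from the RefSeq gene table, matched by the accession that the scanner files give for a probe. Of the 25166 tested features, 13226 had no symbol by this match. One linear model over 12 arrays (limma 3.58.1, R 4.3.3, 8 residual degrees of freedom) was fitted with Benjamini-Hochberg adjustment over all features, and the code was tested on simulated data. A bound for a gene not above background on any array of a group sets the bright group's mean against that group's lowest measurable signal, or the probe's own where higher.

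The members and lists were chosen with earlier results of these data known. The genes named are those of the 40 largest rises and 40 largest falls that were called with and without DMSO replicate 3 and whose groups did not overlap, with genes that have only a bound ranked apart. To these came, in each list, up to 5 called members with the largest change and up to 3 of the brightest not called, 10 genes of the stress axis or known as receptor targets, the 5 of each sign with the smallest p for the stage difference, and genes called with opposite signs at different probes. Deviations from the group mean correlated at -0.09, 0.06 and -0.05 between arrays of the same replicate number. With 3 arrays per group and DMSO 3 far from its group, this cannot decide whether the numbers pair samples. The mean signal column was not present for use here, so normexp (offset 50) took the median signal. Alternatives covered the arrays entered, scaling, background, filter, probe choice, slide, replicate number, array weights and the deposited table. The number of arrays limits the precision. No sequences were used.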

Additional observations from a re-analysis of the deposited data

Results flagged for a closer look

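Among the genes named for their stage difference or as parts and targets of the stress axis, 12 had an effect that differed between stages. The test was limma's test of the difference itself (beclomethasone effect at 72 hpf minus that at 24 hpf, log2, adjusted over all features). All but hsd11b2 and sgk1 were picked for the smallest p in this same test, among the largest rises and falls at 24 hpf. The count of 12 therefore does not measure how common such differences are. Over all features the difference was called for 1586 of 25166 (6.30%). Most of the 12 were also ranked by their values at 24 hpf, so that a smaller effect at 72 hpf is in part a result of that choice. Slide was not part of this fit, and at both stages it was partly tied to treatment.

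The effect was smaller at 72 hpf by -3.65 for the troponin gene tnni2b.2 (adjusted p = 1.81e-05), by -3.35 for the cone gene pde6ha (adjusted p = 0.00248), by -1.58 for the sulfide gene ethe1 (adjusted p = 0.000518), by -1.32 for the mitophagy gene bnip3lb (adjusted p = 0.00123), by -1.20 for the sulfide gene sqor (adjusted p = 0.00256) and by -0.80 for the cortisol-inactivating gene hsd11b2 (adjusted p = 0.0236).

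The difference was positive for genes that fell at 24 hpf. It was 2.5 for nostrin (adjusted p = 0.00547), 1.90 for gad3 (adjusted p = 0.000282), 1.66 for evpla (adjusted p = 0.00242), 1.59 for hsp90aa1.2 (adjusted p = 0.00302) and 1.4 for hspa4a (adjusted p = 0.00302). For sgk1, which rose at both stages, it was 0.81 (adjusted p = 0.00157).

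Dixon's outlier test was not applied, since every group has 3 arrays.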

How the results depend on the processing

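Counts of calls at 24 hpf (4829, with 2278 higher and 2551 lower) moved by over 1.5 times under several alternatives. Leaving out 1 array at a time gave 2199 to 6313 calls, 1246 to 2767 of them higher and 953 to 3546 lower, with the lowest counts without beclomethasone replicate 2 and the highest without DMSO 3; without DMSO 1 there were 1629 lower. With only the 24 hpf arrays there were 1311 (802 and 509), and 3211 when DMSO 3 was left out too (1578 lower). Slide as a block gave 891 (586 and 305), array weights 8322 (3460 and 4862), normexp 9625 (7363 lower) and median centring 4150 lower. Calls were 4427 of 11522 among features well above background on all 6 arrays, and median centring of these, an alternative chosen after seeing the data, gave 1091 higher and 4188 lower. Slide as a block without DMSO 3, also chosen after seeing the data, gave 3736. With replicate number as a block limma called 0 features, 0 higher and 0 lower, while 4997 had an unadjusted p under 0.05, and 0 lists kept a leading direction. The labels do not say whether the numbers pair the samples, and that fit leaves few residual degrees of freedom. The difference between stages was called for 1586 features, and for 3075 without DMSO 3.

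Lists with fewer than 5 calls were not followed here. Of 52 lists with at least 5 calls and a leading direction, 40 to 50 kept it in the other alternatives. The exception was 37 with median centring of the features above background on all 6 arrays. With the deposited table as labelled 4 lists kept their direction and 47 turned, and all 138 called genes turned. With its columns joined to the matching arrays 130 of the 138 kept call and sign.

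Leaving out 1 array of the 24 hpf groups, other than DMSO 3, ended a call only for actb1 (-0.24 to -0.30), agxtb (2.73 to 3.42), avp (0.23 to 0.39), gata1a (0.88 to 1.05), krt4 (-0.26 to -0.32), slc6a19b (1.98), srl (-0.37 to -0.47) and suz12a (-1.03) among named genes. The range is that of the values at which the call was lost, and the array was DMSO 1 or 2 or any beclomethasone array for agxtb. Signs turned with quantile normalization for ago3b (0.11), crhb (0.14) and pink1 (0.30), and in the joined deposited table for crhb (0.092). The median over probes turned actb1 (1.24), itih3b.2 (-0.53), krt4 (0.013) and srl (0.51). Slide as a block turned per1a (0.053, and 0.03 without DMSO 3). The filter on all 6 arrays left another probe of sgk3 (0.00, and -0.076 with median centring). The causes were not tested. Slide as a block ended 32 calls of the 138. Beside fkbp5, klf9, ddit4, cidec and dnaja1 these were actb1, agxtb, arg2, avp, cldng, col9a1a, esrra, fosab, foxo3b, gata1a, gmnn, hmox1a, insig1, irs2a, krt4, krt99, mcm3, nkd1, plekhs1.3, rb1, slc6a19b, slco2a1, srl, suz12a, tefb, trpc6a and tsc22d3.

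Weak signals on DMSO 3 limit what can be said of dim genes, and the 1 beclomethasone array on the slide of the DMSO arrays limits the separation of slide from treatment. The search for glucocorticoid response elements in promoters was not run.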
